A study of Homo sapiens with 24 samples.

Results

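The control state of A549, a human lung adenocarcinoma cell line, was described from its 3 siC libraries and set against the 9 siC libraries of ES2 (ovarian carcinoma), MV3 (melanoma) and PANC1 (pancreatic carcinoma), 12 of the 24 libraries of the series. The 12 libraries were chosen by their labels alone: cell line and control siRNA. In all of them the cells had been transfected with the control siRNA CEL-miR-239b and grown in DMEM with fetal bovine serum, and total RNA was depleted of ribosomal RNA before sequencing. A549, ES2 and MV3 were harvested 72 h after transfection and PANC1 after 96 h, so that time and cell line cannot be told apart for PANC1. The other 12 libraries (siI1) received a pool of siRNAs against IGF2BP1 and were used only to look at the same contrasts in libraries of their own. Each line is 1 established culture, and its own table was deposited for it. A line thus cannot be told apart from its table, its sequencing and its passage. The p-values measure the spread between libraries within a line, estimated jointly over the lines, and not the spread between tumours.

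As background, A549 is a long-used model of lung adenocarcinoma that is known to have lost KEAP1, STK11 (LKB1), SMARCA4 and CDKN2A function. KEAP1 holds the transcription factor NRF2 (gene NFE2L2) in check by handing it to the proteasome, and free NRF2 binds antioxidant response elements in front of genes for glutathione synthesis, NADPH supply and detoxification. LKB1 activates kinases that keep the CREB coactivators of the CRTC family out of the nucleus, and p53 drives cell cycle arrest, repair and apoptosis genes. Alveolar type II cells, the surfactant-making cells of the lung, are the lineage with which the line is usually associated. These statements come from general knowledge of the line and were not tested here.

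The deposited values, whose unit was not named, were taken as FPKM. Those of the 19799 protein-coding genes were rescaled to a sum of 1000000 in each library ("scaled FPKM"), which takes out the scaling factor of each table. The reads behind them could be recovered, and A549 was the shallowest line, with 3987122 to 4406817 reads assigned per library against 6421764 to 16077195 in the others. Genes with a mean of at least 0.5 over the 12 libraries (13741) were tested with limma on log2(scaled FPKM + 0.5), which understates differences of low genes. A gene was called above, or below, each other line when its log2 difference was at least 1 in that direction, with an adjusted p under 0.05, in all 3 contrasts (A549 against ES2, MV3 and PANC1). Levels are scaled FPKM, triplets are in the order of replicates 1 to 3, and values after ± are SD over 3 libraries (n = 3) unless SE is named. All adjusted p-values given here are from this limma fit with Benjamini-Hochberg adjustment over the genes tested.

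By this rule 1369 genes were above each other line (9.96% of those tested) and 294 were below (2.14%). In single contrasts 36.7% of genes differed from ES2, 35.0% from MV3 and 34.7% from PANC1. Of the genes tested, 563 passed the filter only through A549, their mean over the other 9 libraries being under 0.5, and without them 925 of 13178 were above. The median over all tested genes lay at log2 differences of 0.30, 0.18 and 0.13 from ES2, MV3 and PANC1, and at 0.03, 0.09 and 0.02 when the libraries were put on a common median instead. On that scale 75.3% of the called genes were above and the others below, against 82.3% on the main scale. When the same fit was read for the other lines, 499 genes were above and 529 below in ES2, 353 and 571 in MV3, and 923 and 682 in PANC1. Of the 136 listed genes above each other line, 125 remained so under each of 3 other scalings, and all 21 of those below did. The lists below were drawn up with earlier results of these data known, so their shares are descriptions to be read beside the 9.96% and 2.14% of all genes.

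**Figure D1:**
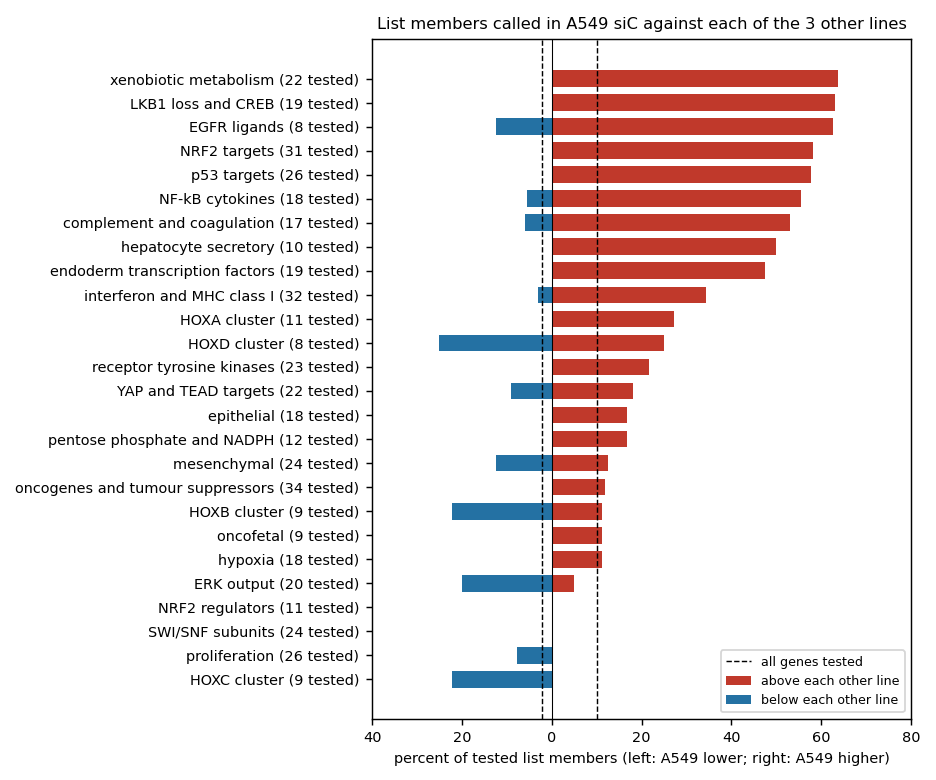
Share of tested list members that were above (bars to the right, red) or below (bars to the left, blue) each of ES2, MV3 and PANC1 in A549 siC, in percent, for lists with at least 8 tested members. Dashed lines mark the shares over all 13741 genes tested (9.96% above, 2.14% below), and the longest bars to the right are xenobiotic metabolism and LKB1 loss and CREB genes.

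The lung label was examined with alveolar type II markers. The surfactant protein genes SFTPA1, SFTPA2, SFTPB and SFTPC, the phosphate carrier SLC34A2 and the lung lineage factor NKX2-1 had 0 reads in all 3 A549 libraries, a depth at which a gene with fewer than 3 reads over the group could be missed. SFTPD rested on 1 read in all. Of the 12 markers 4 were tested and none was called (0 to 1 under the other scalings). Those present are not confined to alveolar cells: the lipid transporter ABCA3 was at 44.1 ± 3.09 (SD, n = 3) in A549 and 48.7 ± 3.25 in PANC1, the acyltransferase LPCAT1 at 60.1 ± 5.7, and the protease CTSH at 13.9 ± 2.89 in A549 and 85.5 ± 2.99 in PANC1. Of the airway markers 4 of 12 were tested: FOXJ1, the regulator of motile cilia, was above each other line at 2.46 ± 1.63 although it was tested only through A549 and lost the call in 1 of the leave-one-out fits, and the secretory cell gene SCGB1A1 was at 0. The mucin-folding protein AGR2 was at 101 ± 12 in A549 and 137 ± 4.56 in PANC1. The defining surfactant transcripts of the labelled lineage were therefore absent or at a single read, and A549 is used here as the name of the line only.

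Endoderm transcription factors, which specify gut, liver and lung, were examined next. Of 22 listed, 19 were tested and 9 were above each other line, 3 of 12 when genes tested only through A549 were left out. These 3 were NR5A2, ELF3 and KLF5. HNF4A, SOX2, FOXA3 and EHF were tested only through A549, so their calls describe genes selected by a high level there. NR5A2, a nuclear receptor of liver and pancreas, was at 131, 135 and 133 in A549, 0.276, 0.174 and 0.244 in ES2, 0.0408, 0 and 0.0411 in MV3, and 3.32, 2.98 and 2.92 in PANC1. HNF4A, the nuclear receptor of hepatocyte and intestinal identity, was at 45.4, 49.2 and 43.3 in A549, 0, 0 and 0.0841 in ES2, 0.0422, 0.0412 and 0 in MV3, and 0 in all 3 PANC1 libraries. Both were high in every A549 library, and HNF4A rested on no more than 1 read in any library of another line. The pluripotency and foregut factor SOX2 was at 20.02 ± 2.74 and the forkhead factor FOXA3 at 9.36 ± 1.97.

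The epithelial regulators ELF3, EHF and KLF5 were part of the same group. ELF3 was at 92.8 ± 5.37 in A549 against 0.0917 ± 0.159 in ES2, 0.0144 ± 0.0249 in MV3, 20.7 ± 1.46 in PANC1 (SD, n = 3 each). KLF5 was at 106 ± 8.49 in A549 against 4.63 ± 0.867 in ES2, 19.2 ± 1.23 in MV3, 2.11 ± 0.931 in PANC1, and its log2 differences were 4.39 ± 0.23 from ES2, 2.43 ± 0.23 from MV3 and 5.42 ± 0.23 from PANC1 (SE; largest adjusted p = 4.54e-07). Not all endoderm factors were particular to A549: FOXA2 was at 18.9 ± 1.07 against 22.1 ± 1.99 in PANC1, SOX9 at 40.2 ± 3.42 against 99.1 ± 4.8 in ES2 and 99.4 ± 6.55 in PANC1, and GATA4 at 6.26 ± 1.05 against 33.2 ± 3.03 in PANC1. The pancreatic factor PDX1 was at 0 in A549 and 9.35 ± 1.58 in PANC1.

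Hepatocyte genes were present at low levels. Of 21 listed, 10 were tested and 5 were above each other line, and all 5 were tested only through A549, so that 0 of 4 remained without such genes. The highest was TM4SF4, a tetraspanin-like protein of liver and intestine, at 59.2, 63 and 69.2 in A549, 0 in all 3 ES2 libraries, 0 in all 3 MV3 libraries, and 0 in all 3 PANC1 libraries. The plasma protein APOH was at 35.5 ± 7.82, the protease inhibitor precursor AMBP at 11.2 ± 5.05, and the fibrinogen chains FGA and FGB at 3.85 ± 0.38 and 2.5 ± 1.08. ALB, TTR, SERPINA1, APOB and HP, which define hepatocyte secretion, had 0 reads in all A549 libraries.

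**Figure D2:**
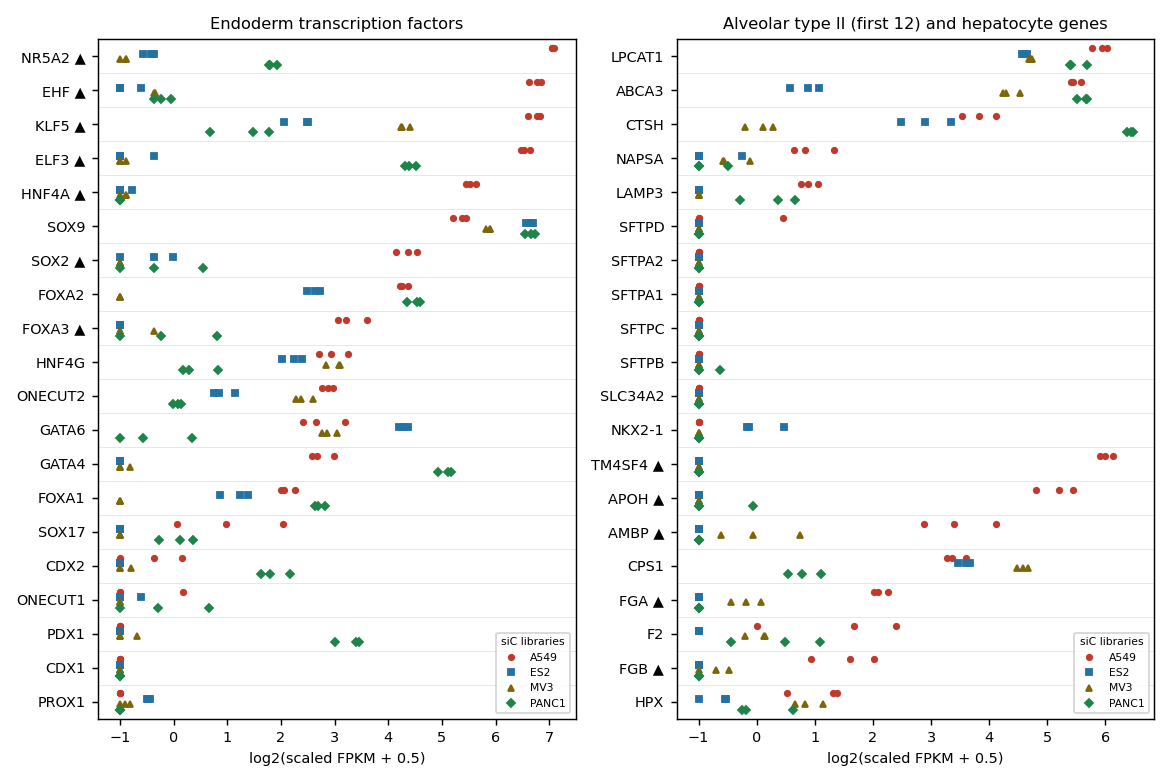
Level of 20 endoderm transcription factors (left) and of the 12 alveolar type II markers followed by the 8 hepatocyte genes highest in A549 (right) in each siC library, as log2(scaled FPKM + 0.5); 1 symbol is 1 library, 3 per line, and a triangle after a name marks a gene called above (▲) each other line. The marked factors include NR5A2 and HNF4A, while 6 alveolar markers lie at 0 reads in the 3 A549 libraries.

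A549 carried epithelial and mesenchymal transcripts side by side. KRT7, a keratin of simple epithelia, was at 1934, 1948 and 2089 in A549, 447, 475 and 445 in ES2, 3.55, 3.9 and 5.62 in MV3, and 12.8, 18.6 and 15.7 in PANC1, and the groups did not overlap. E-cadherin (CDH1) was at 92 ± 3.22 in A549 against 0 in ES2, 0.0167 ± 0.0289 in MV3, 24.9 ± 1.54 in PANC1, with a smallest log2 difference of 1.87 (largest adjusted p = 1.50e-08), and the tight junction protein TJP3 was the remaining epithelial gene above each other line, 3 of 18 tested and 26 listed (2 of 17 without TJP3, which was tested only through A549). KRT8, KRT18 and KRT19 had higher means in PANC1 than in A549: KRT19 was at 582 ± 28.1 in A549 and 3368 ± 182 in PANC1. The splicing factors ESRP1 and ESRP2 were at 0 in A549, and EPCAM was at 5.84 ± 1.35. Of 24 tested mesenchymal genes 3 were above and 3 below. Vimentin (VIM) was at 1239 ± 12.3 in A549 against 4756 ± 115 in ES2, 4399 ± 144 in MV3, 2962 ± 151 in PANC1, below each other line although high, and the matrix glycoprotein SPARC was at 6.48 ± 0.862 against 62.1 to 903 elsewhere. The collagen COL5A1, the smooth muscle actin ACTA2 and the actin-binding protein TAGLN were above each other line, COL5A1 at 289 ± 21.9. TAGLN lost its call under 1 of the other scalings (median of ratios). N-cadherin (CDH2) was at 205 ± 10.9 in A549 and 115 ± 11.7 in ES2.

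Markers of other cell types gave no call for melanocyte (4 tested of 15), ovarian (4 of 9), pancreatic (3 of 11) and neuroendocrine genes (2 of 9). A call above required A549 to exceed MV3, ES2 and PANC1 themselves, so the first 3 of these lists could hardly give one. Their summed levels were 17.8 to 21.5, 15.1 to 25.8 and 38.1 to 47 in the A549 libraries. In the other libraries they were 36.5 to 130, 1.27 to 60.6 and 56.4 to 118. The pancreatic list shares SOX9, PDX1 and ONECUT1 with the endoderm list. Of the 12 blood and endothelial markers 8 were at 0 in the A549 libraries, among them the leukocyte gene PTPRC and the T cell gene CD3E. The monocyte co-receptor CD14 was above each other line at 12.4 ± 2.24 (others 0 to 2.58). The summed level of this list was 10.7 to 14.9 in the A549 libraries and 1.31 to 51.9 in the others. CD14's part in any other result was not tested.

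The HOX genes, which give cells their position along the body axis, lie in 4 clusters. Over all genes 9.96% were above and 2.14% below, and the counts per cluster are small. In HOXA, 3 of 11 tested were above each other line, HOXA13, HOXA7 and HOXA9 (2 of 10 without HOXA9, which was tested only through A549). HOXA13 was at 6.41, 9 and 8.51 in A549, 0.82, 1.04 and 0.604 in ES2, 0.0607, 0.118 and 0.0611 in MV3, and 1.79, 1.56 and 1.36 in PANC1. In HOXB, 2 of 9 were below: HOXB2 was at 0.679 ± 0.793 in A549 against 21.1 ± 3.08 in ES2, 14.2 ± 0.887 in MV3, 37.7 ± 5.76 in PANC1, and HOXB4 at 3.1 ± 0.406 against 10.7 to 54.5 in the other libraries. HOXB13 was above on the main scale only, at 19.6 ± 1.33 against 9.23 ± 0.445 in PANC1. In HOXC, 2 of 9 (HOXC5 and HOXC6) were below and none above. In HOXD, HOXD10 and HOXD11 were above (both tested only through A549) and HOXD3 and HOXD4 below, of 8 tested. The calls of HOXA7 were lost under 2 of the 3 other scalings.

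NRF2 target genes had the highest summed level of the lists in A549. Of 32 listed, 31 were tested and 18 were above each other line (15 of 28 without genes tested only through A549), and none was below. The summed level of the list was between 34908 and 36128 in the A549 libraries and between 8068 and 17635 in the other 9. The range of other scalings was 17 to 18 genes. The aldo-keto reductase AKR1B10 (chr7:134527567-134541412; coordinates here are from GENCODE release 44, hg38) was at 6020.5, 5579 and 5587 in A549, 0.797, 0.378 and 0 in ES2, 4.6, 3.11 and 3.56 in MV3, and 0, 0 and 3.56 in PANC1. It was 1525-fold above MV3, the highest of the other lines, and ranked as the third most abundant protein-coding gene of A549 after ferritin light chain (FTL) and TMSB10. AKR1C2 (chr10:4987775-5018031), a steroid-reducing member of the same superfamily, was at 1524, 1512 and 1512 in A549, 0.538, 0.612 and 1.62 in ES2, 1.1, 0.978 and 0.769 in MV3, and 0.118, 0 and 0.534 in PANC1.

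AKR1C1 and AKR1C3 lie beside AKR1C2 on chromosome 10. AKR1C3 was at 1641 ± 67.6 in A549 against 61.2 ± 0.706 in ES2, 8.58 ± 1.13 in MV3, 0.197 ± 0.235 in PANC1, and AKR1C1 was at 329 ± 7.31 against no more than 2.66 in any other library. The AKR1C genes are close copies of each other, so that the split of reads between them is uncertain. Each of the 3 was higher in every A549 library than in any other library. GPX2, a glutathione peroxidase of gut and lung epithelium (chr14:64939152-64942746), was at 779.6, 632 and 613 in A549, 0 in all 3 ES2 libraries, 0 in all 3 MV3 libraries, and 0, 0 and 0.46 in PANC1. ALDH3A1, an aldehyde dehydrogenase, was at 1908, 1741 and 1847 in A549, 0 in all 3 ES2 libraries, 0.158, 0.768 and 0.238 in MV3, and 0.388, 0 and 1.41 in PANC1. In GPX2 and ALDH3A1 alike ES2 had 0 reads in every library.

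The genes of glutathione supply differed less. GCLC and GCLM are the subunits of the enzyme that starts glutathione synthesis. GCLC was at 61.8 ± 3.46 in A549 against 16.1 ± 1.95 in ES2, 12 ± 0.28 in MV3, 21.7 ± 2.23 in PANC1. GCLM was at 196 ± 9.23 in A549 against 33.9 ± 3.84 in ES2, 55.7 ± 3.29 in MV3, 75.7 ± 7.08 in PANC1. For GCLM the log2 differences were 2.52 ± 0.09 from ES2, 1.80 ± 0.09 from MV3 and 1.37 ± 0.09 from PANC1 (SE; largest adjusted p = 1.62e-08). Glutathione reductase (GSR) was at 428, 460.4 and 406 in A549, 73.5, 75.8 and 63.4 in ES2, 45.8, 41 and 41.8 in MV3, and 72, 73.6 and 71.2 in PANC1. The cystine importer SLC7A11 was at 221 ± 23.6 in A549 against 46.1 ± 4.09 in ES2, 78.3 ± 4.73 in MV3, 20.8 ± 5.3 in PANC1, and the smallest log2 difference was 1.49 (largest adjusted p = 4.97e-07). The efflux pumps ABCC2 and ABCC3 were at 751 ± 19 and 372 ± 18.4, with 49.8 and 64.2 as the highest values in another library. The smaller differences of the list were those of SRXN1, which reactivates peroxiredoxins, at 27.5 ± 7.03 against 8.44 to 12.4, and it lost its call under 2 of the 3 other scalings.

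Not every NRF2 target stood apart. NQO1, the quinone reductase often used as its marker, was at 2193, 2049.7 and 1999.98 in A549, 295, 291 and 306 in ES2, 1294, 1259.7 and 1223 in MV3, and 332, 317 and 329 in PANC1, so A549 was highest but within a log2 difference of 0.72 of MV3. HMOX1, the heme-degrading enzyme, was at 87.2 ± 6.84 in A549 and 256 ± 4 in PANC1. FTL was at 10985 ± 712 against 11559 ± 323 in MV3, and SQSTM1, the autophagy receptor, at 476 ± 25.9 against 792 ± 25.8 in PANC1. None of the 11 NRF2 regulators was called. NFE2L2 itself was at 67.8 ± 10.2 in A549 against 48.9 ± 3.74 in ES2, 83 ± 0.933 in MV3, 84.4 ± 7.64 in PANC1, and KEAP1 at 80.02 ± 4.29 in A549 against 65.3 ± 3.06 in ES2, 116 ± 4.97 in MV3, 103 ± 3.15 in PANC1.

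**Figure D3:**
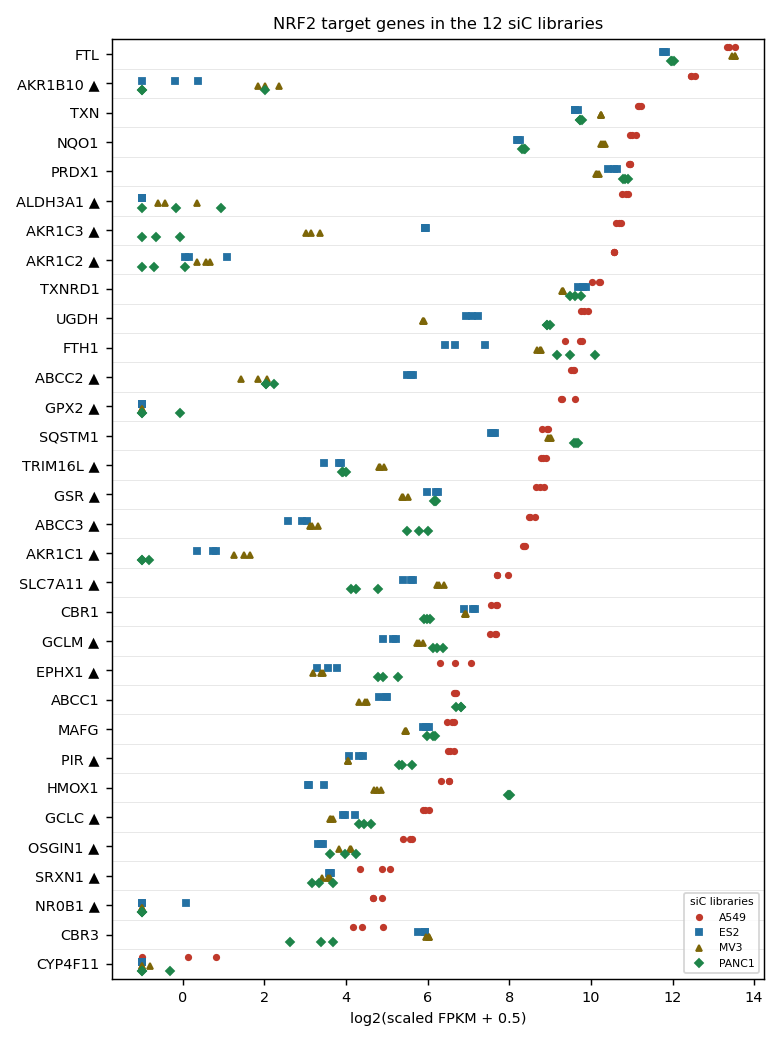
Level of the 32 NRF2 target genes in each siC library as log2(scaled FPKM + 0.5), ordered by the A549 mean; 1 symbol is 1 library, 3 per line, and ▲ marks genes above each other line. AKR1B10, ALDH3A1, AKR1C2 and GPX2 show the widest gaps, while FTL, SQSTM1 and HMOX1 of A549 lie within or below the other lines.

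Promoters were searched for the antioxidant response element, spelled TGACNNNGC, on both strands, in windows of 250 bases before to 50 bases after the start (RefSeq, GRCh38.p14). It was found in 13.3% of 35116 promoters of all genes. Of the 32 listed genes 21 had a promoter in the table, and 6 of these (28.6%) held the letters: 3 of 12 above each other line and 3 of 9 others. The match is a description of the window and not a binding site. The 30-base stretches of the matching promoters upstream of the start are shown because they allow called and uncalled members to be compared, and the capitals mark the matched letters, written on the strand given:
GCLM (above each other line; chr1:93909445-93909474, + strand): ctggaagacaaTGACTAAGCagaaatcgta
GPX2 (above each other line; chr14:64942848-64942877, + strand): catccccaggaTGACTTAGCaaaaacaggt
TXNRD1 (not called; chr12:104215670-104215699, + strand): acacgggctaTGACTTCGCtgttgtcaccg
CBR1 (not called; chr21:36069855-36069884, - strand): gccagctagccTGACTTTGCagaacccgca
The remaining matches were in the promoters of CYP4F11, which was not tested, and of PIR, downstream of its start.

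NADPH, which many of these reductases consume, is made largely by the pentose phosphate pathway. Of 12 listed genes 2 were above each other line (16.7%, beside 9.96% of all genes). PGD, the dehydrogenase of its oxidative branch, was at 1682, 1566 and 1627 in A549, 505, 523 and 537 in ES2, 494, 488 and 469.5 in MV3, and 344, 331 and 319 in PANC1. Transketolase (TKT) was at 631 ± 36.3 in A549 against 231 ± 2.28 in ES2, 271 ± 6.21 in MV3, 208 ± 8.58 in PANC1 (SD, n = 3 each), with log2 differences of 1.44 ± 0.05 from ES2, 1.21 ± 0.05 from MV3 and 1.60 ± 0.05 from PANC1 (SE; largest adjusted p = 1.29e-10). The malic enzyme ME1 was at 88.5 ± 13.5, and near 0 in MV3.

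Many of the xenobiotic metabolism genes were above each other line. Of 26 listed 22 were tested and 14 were above each other line (8 of 16 without genes tested only through A549; 13 under the other scalings, without NAT1), and none was below. ALDH1A1, the retinaldehyde dehydrogenase (chr9:72900671-73080442), was at 5149, 5249 and 5443 in A549, 0 in all 3 ES2 libraries, 0.325, 0.317 and 0.109 in MV3, and 0, 0 and 1.94 in PANC1. It was 8176-fold above PANC1, and the fourth most abundant protein-coding gene in A549. CYP24A1, which inactivates vitamin D (chr20:54153446-54173986), was at 1959.6, 2168 and 1964 in A549, 0.35, 0 and 0.619 in ES2, 2.72, 2.73 and 3.36 in MV3, and 2.68, 2.15 and 1.91 in PANC1. Both were high in every A549 library, and no other library exceeded 3.36. In PANC1 the reads of AKR1B10, ALDH1A1 and GPX2 were all in replicate 3, without which PANC1 is at 0 for these genes. The part of that library in other results was not tested beyond leaving it out, which gave 1400 genes above each other line.

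Other members covered several classes of enzyme. ALDH3B1 was at 146 ± 3.14 against 4.68 to 15.4, and the mitochondrial ALDH2 at 50.6 ± 3.41 against no more than 2.06. The microsomal glutathione transferases MGST1 and MGST2 were at 127 ± 8.16 and 36.3 ± 4.91. The other cytochrome P450 genes were at lower levels: CYP2S1 at 19.9 ± 2.39, CYP3A5 at 19.6 ± 3.02 and CYP4F3 at 9.2 ± 3.01. UGT1A1 and UGT1A6, which add glucuronic acid, were at 8.31 ± 1.13 and 5.01 ± 0.78 and at 0 in the other 9 libraries; they share their last exons with the other UGT1A genes, so the split between them is uncertain. CYP1B1 and the pump ABCG2 had higher means in PANC1 than in A549, and ABCB1, another pump, was at 0.0693 ± 0.12 in A549 against 5.12 ± 0.719 in ES2.

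The list of LKB1 loss and CREB genes had 12 of 19 tested members above each other line (22 listed; 9 of 15 without genes tested only through A549; 12 under every other scaling) and none below. SIK1, a salt-inducible kinase and CREB target, was at 185, 217 and 223 in A549, 3.98, 5.13 and 4.91 in ES2, 3.6, 4.31 and 3.56 in MV3, and 32, 25.1 and 34.3 in PANC1. The list also holds PDE4D and PDE4B, phosphodiesterases that break down cyclic AMP. PDE4B was at 45.5 ± 3.53 in A549 against 2.86 ± 0.251 in ES2, 11 ± 0.551 in MV3, 0.103 ± 0.0332 in PANC1. PDE4D was at 241 ± 14.7 in A549 against 11.7 ± 0.299 in ES2, 6.74 ± 1.04 in MV3, 0.451 ± 0.199 in PANC1. For PDE4D the log2 differences were 4.31 ± 0.15 from ES2, 5.07 ± 0.15 from MV3 and 8.01 ± 0.15 from PANC1 (SE; largest adjusted p = 2.17e-11). INSL4, a relaxin-family hormone of placenta, was at 56.3, 48.2 and 43.2 in A549, 0.356, 0 and 0 in ES2, 0, 0 and 0.159 in MV3, and 0 in all 3 PANC1 libraries. AVPI1 was at 216 ± 8.61, the calcium-binding protein TESC at 123 ± 18.6, the phosphatase PTP4A1 at 194 ± 29.4 and the flavokinase RFK at 144 ± 15.1, each with all A549 libraries above all others. The nuclear receptors NR4A1 and NR4A2 were above each other line at only 9.02 ± 1.66 and 3.28 ± 1.35. CPS1, the urea cycle enzyme, was at 10.1 ± 1.27 and higher in MV3 at 23.3 ± 1.63. STK11 mRNA itself was at 29 ± 3.37 in A549 against 43.4 ± 1.76 in ES2, 64.9 ± 1.23 in MV3, 87.2 ± 2.92 in PANC1, lowest in A549 but with a log2 difference of only -0.58 from ES2 (adjusted p = 1.75e-05).

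The p53 target list had members above each other line across arrest, repair and apoptosis. All 26 were tested, 15 were above each other line (13 of 24 without genes tested only through A549; 14 to 15 under other scalings), and none was below. The summed level was 3561 to 3661 in the A549 libraries and 930.1 to 1491 in the others. CDKN1A, the cyclin-dependent kinase inhibitor p21, was at 482, 466 and 473 in A549, 11.4, 11.9 and 12.3 in ES2, 9.72, 12.1 and 12.1 in MV3, and 57.3, 68.5 and 56.3 in PANC1, and its log2 differences were 5.26 ± 0.10 from ES2, 5.33 ± 0.10 from MV3 and 2.96 ± 0.10 from PANC1 (SE; largest adjusted p = 1.34e-11). MDM2, the ubiquitin ligase that degrades p53, was at 129, 142 and 132 in A549, 23.1, 21.3 and 21 in ES2, 16.5, 15.6 and 16.4 in MV3, and 37.8, 39.6 and 43.3 in PANC1. The apoptosis gene FAS was at 50.2 ± 8.32 in A549 against 6.81 ± 0.886 in ES2, 1.06 ± 0.112 in MV3, 5.02 ± 2.33 in PANC1, and BBC3 (PUMA) at 25.8 ± 1.9 in A549 against 5.26 ± 1.89 in ES2, 9.36 ± 0.647 in MV3, 6.89 ± 2.32 in PANC1. PHLDA3, an AKT inhibitor, was at 189 ± 2.29 against no more than 14.9, and BTG2 and SPATA18 were at 62.2 ± 2.46 and 22.1 ± 2.06 with other libraries at 1.25 or less and at 0.

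DNA repair members shared the direction: DDB2 was at 96.1 ± 1.05 in A549 against 15.7 ± 1.21 in ES2, 18.7 ± 1.14 in MV3, 24.4 ± 4.28 in PANC1, and XPC at 89.5 ± 9.43 against 24.4 to 43.6, the latter losing its call under 1 other scaling. GDF15, a stress cytokine, was at 98.4 ± 11 in A549 and 219.8 ± 14 in PANC1, and PLK2, CCNG1 and BAX were not called although A549 had the highest mean of each.

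**Figure D4:**
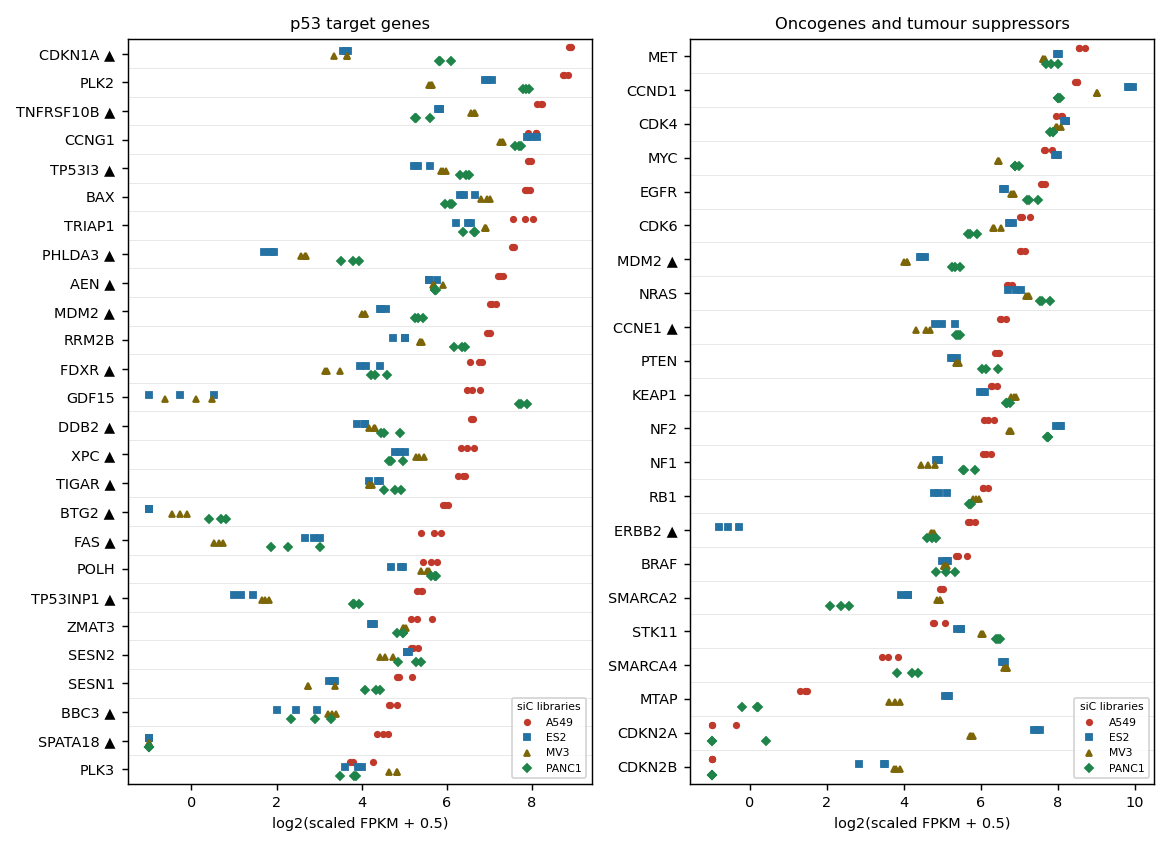
Level of the 26 p53 target genes (left) and of 22 oncogenes and tumour suppressors (right) in each siC library as log2(scaled FPKM + 0.5), ordered by the A549 mean; 1 symbol is 1 library, 3 per line, and ▲ marks genes above each other line. CDKN1A and PHLDA3 of A549 are separated from all other libraries, and CDKN2A and CDKN2B of A549 lie with those of PANC1 at the floor.

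Of the 36 oncogenes and tumour suppressors 34 were tested, and 4 were above each other line, MDM2, CCNE1 and ERBB2 among them, and none below, a share of 11.8% beside 9.96% of all genes. MDM2 and CCNE1 remained under the other scalings and ERBB2 did not. The cyclin gene CCNE1 was at 94.1 ± 5.36 in A549 against 32.8 ± 6.32 in ES2, 22.7 ± 3.05 in MV3, 42 ± 1.85 in PANC1. MYC was at 212 ± 16.8 in A549 against 252 ± 6.95 in ES2, and CCND1 was highest in ES2 at 941 ± 50.9. EGFR was at 194 ± 7.15 in A549 against 97.2 ± 1.56 in ES2, 113 ± 3.08 in MV3, 159 ± 17 in PANC1. MET was at 390.5 ± 25.3 in A549 against 257 ± 4.82 in ES2, 199 ± 4.78 in MV3, 230.04 ± 26.1 in PANC1. Both were highest in A549, by less than a log2 difference of 1 from the nearest line.

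In the CDKN2A region of chromosome 9, CDKN2A and CDKN2B had almost no reads in A549, and MTAP had 78 over the 3 libraries. CDKN2A (chr9:21967752-21995301), which encodes the inhibitors p16 and p14ARF, had 1 read over the 3 A549 libraries. It was at 0.279, 0 and 0 in A549, 167, 186 and 175 in ES2, 53.1, 54.9 and 52.1 in MV3, and 0, 0.844 and 0 in PANC1. CDKN2B, its neighbour, had 0 reads in A549 and PANC1 and was at 9.39 ± 2.36 in ES2 and 13.5 ± 0.739 in MV3. MTAP, the methylthioadenosine phosphorylase gene on the other side of CDKN2A, was at 2.31, 2.17 and 1.95 in A549, 34.9, 32.9 and 35.9 in ES2, 11.8, 13.2 and 14.3 in MV3, and 0.364, 0.625 and 0.661 in PANC1. The low values in A549 and PANC1 thus ran over 3 neighbouring genes, and none of the 3 was called since PANC1 was low too. Of the genes around them, KLHL9 was at 63 ± 2.59 in A549, DMRTA1 at 12.3 ± 2.91, and the interferon gene IFNE at 71.5 ± 14.6, above each other line. The interferon genes IFNA1, IFNA2, IFNA5, IFNA6, IFNA8 and IFNA13 of the same region had 0 reads in all siC libraries.

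SWI/SNF chromatin remodelling subunits gave no call among 24 tested. The ATPase subunit SMARCA4 (BRG1) was at 11.5, 14 and 10.3 in A549, 93.9, 97 and 98.5 in ES2, 103, 102 and 97 in MV3, and 17.9, 13.7 and 20.2 in PANC1, far below ES2 and MV3, with log2 differences of -2.97 ± 0.13 from ES2, -3.03 ± 0.13 from MV3 and -0.51 ± 0.13 from PANC1 (SE; largest adjusted p = 0.00319). The alternative ATPase SMARCA2 was at 31.1 ± 0.978 in A549 against 16.1 ± 1.18 in ES2, 29.6 ± 0.646 in MV3, 4.63 ± 0.87 in PANC1. SMARCE1 was at 40.8 ± 3.55, the highest of the 4 lines, and ARID1A at 26.8 ± 4.75.

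Of 26 listed receptor tyrosine kinases 23 were tested, and 5 (21.7%, beside 9.96% of all genes) were above each other line. Without those tested only through A549 there were 4 of 22, and under other scalings 4. The member lost under other scalings was ERBB2, which is also counted among the oncogenes above. The insulin-like growth factor receptor IGF1R was at 199, 211 and 230.1 in A549, 14.9, 16.7 and 13.5 in ES2, 26.2, 29 and 29.5 in MV3, and 45.6, 49.1 and 56.6 in PANC1. FGFR4 was at 53.9 ± 3.28 in A549 against 0.827 ± 0.388 in ES2, 0.169 ± 0.196 in MV3, 3.13 ± 0.545 in PANC1 (SD, n = 3 each), with a smallest log2 difference of 3.91, and the insulin receptor INSR at 9.66 ± 1.73. NTRK3, a neurotrophin receptor, was at 10.9 ± 0.45 with no other library above 0.0348. Among ligands of the EGFR family 5 of 8 tested were above each other line (3 of 6 without those tested only through A549; 4 to 6 under other scalings) and 1 was below. NRG1 was at 201, 266 and 243 in A549, 61.9, 67.4 and 58.9 in ES2, 12.2, 12.6 and 14.9 in MV3, and 29.9, 33.3 and 36.4 in PANC1. AREG was at 108 ± 10.7 in A549 against 9.94 ± 0.22 in ES2, 5.46 ± 0.874 in MV3, 3.47 ± 0.62 in PANC1. TGFA was at 22.8 ± 1.47 against 1.5 ± 0.524 in PANC1. NRG2 was the member below, at 1.77 ± 0.38 against 5.87 to 21.4, and HBEGF was at 8.92 ± 0.31 in A549, 126 ± 5.51 in ES2 and 30.3 ± 0.608 in MV3.

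Genes read as output of the ERK pathway were more often below than above. Of 20 tested, 1 was above (5%) and 4 were below (20%) each other line, beside 9.96% and 2.14% of all genes. The median log2 difference of the list was -1.38 from ES2, -0.63 from MV3 and -0.30 from PANC1. The member above, DUSP4, is also on the LKB1 loss and CREB list. DUSP4, the nuclear ERK phosphatase, was at 251, 264 and 253 in A549, 15.2, 12.9 and 15.3 in ES2, 79.4, 82.2 and 81 in MV3, and 0, 0 and 0.0951 in PANC1. FOSL1, an AP-1 subunit, was at 44.1, 49.9 and 42.9 in A549, 701, 685 and 752 in ES2, 402, 427 and 395 in MV3, and 405, 396 and 405 in PANC1, and its log2 differences were -3.95 ± 0.06 from ES2, -3.15 ± 0.06 from MV3 and -3.13 ± 0.06 from PANC1 (SE; largest adjusted p = 1.40e-13). FOSL1 did not overlap between A549 and any other line. The feedback inhibitor SPRY4 was at 8.71 ± 2.75 in A549 against 33.9 ± 4.41 in ES2, 43.4 ± 1.47 in MV3, 31.9 ± 3.48 in PANC1. EMP1 was at 6.08 ± 0.901 in A549 against 377 ± 20.9 in ES2, 272 ± 1.48 in MV3, 27.2 ± 1.79 in PANC1. The immediate early factor EGR1 was at 0.762 ± 0.355 against 1.55 to 4.31. DUSP6 was at 10.9 ± 2.16 in A549 and 14 ± 0.642 in PANC1, and at 98.4 ± 2.44 in ES2. Among YAP and TEAD targets 4 of 22 were above (18.2%) and 2 below (9.09%), beside 9.96% and 2.14% of all genes. The secreted proteins CYR61 (CCN1) and CTGF (CCN2) were the members below: CYR61 was at 51.6, 62.2 and 54.3 in A549, 1003, 889 and 974 in ES2, 352, 347 and 326 in MV3, and 794, 837 and 844 in PANC1, with no overlap. CTGF was at 14.5 ± 4.25 in A549 against 204 ± 45.3 in ES2, 29.6 ± 2.57 in MV3, 116 ± 34.8 in PANC1. IGFBP3, which binds insulin-like growth factors, was above at 156 ± 13.7, as were TGFB2 (114 ± 7.26), NUAK2 (105 ± 9.57) and DOCK5 (76.1 ± 4.69).

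NF-kB cytokine genes were above each other line in 10 of 18 and below in 1, and in 8 of 18 under each other scaling, where CXCL8 and LIF lost their calls. The neutrophil chemokine CXCL5 was at 2467, 2384 and 1879 in A549, 433, 355 and 430.4 in ES2, 85.6, 86.7 and 84.2 in MV3, and 0, 4.8 and 0.816 in PANC1, and CXCL1 at 405 ± 7.88 in A549 against 49.7 ± 4.84 in ES2, 128 ± 6.28 in MV3, 41.7 ± 2.72 in PANC1. CXCL2 was at 131 ± 17.5 and CXCL3 at 47.1 ± 8.89; these chemokine genes are close copies of each other and the split of reads between them is uncertain. CXCL8 was at 513 ± 72.8 against 246 ± 27.9 in ES2. The deubiquitinase TNFAIP3 was at 63.8 ± 3.3 in A549 against 8.22 ± 0.755 in ES2, 11 ± 0.456 in MV3, 10.4 ± 2.58 in PANC1, and IL11 and IL32 were at 75.7 ± 8.25 and 49 ± 0.689. The adhesion molecule ICAM1 went the other way, at 0.326, 2.06 and 0 in A549, 7.5, 9.43 and 11.4 in ES2, 57, 50.6 and 52.4 in MV3, and 91.8, 92.2 and 99.4 in PANC1. IL6 was at 3.67 ± 0.53 in A549 and 8.85 ± 0.612 in MV3, and CCL2 was highest in PANC1.

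Complement genes were a further secreted group, with 9 of 17 tested members of the complement and coagulation list above each other line (7 of 15 without those tested only through A549; 9 under each other scaling) and 1 below. C3, the central component (chr19:6677704-6730562), was at 436, 429 and 453 in A549, 0 in all 3 ES2 libraries, 1.26, 1.3 and 1.23 in MV3, and 0.274, 0.293 and 0.414 in PANC1. It was 348-fold above MV3. The proteases C1S and C1R, which are neighbours on chromosome 12, were both above. C1S was at 142 ± 8.32 in A549 against 0.709 ± 0.0933 in ES2, 2.63 ± 0.251 in MV3, 0.414 ± 0.317 in PANC1. C1R was at 90.8 ± 5.6 in A549 against 0.234 ± 0.127 in ES2, 4.04 ± 0.536 in MV3, 0.126 ± 0.122 in PANC1. C5 was at 47.5 ± 3.62. Of the membrane regulators, CD46 was above at 182 ± 10.3 and CD59 below at 309 ± 13.4 against 621 to 778. PLAT, the plasminogen activator, was at 6.93 ± 0.498 against 444 ± 13.9 in ES2.

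The interferon-stimulated and MHC class I list held calls in both directions. Of 32 tested (34 listed) 11 were above each other line, all of them interferon-stimulated, and 1, HLA-B, was below (10 of 31 without genes tested only through A549; 11 above under each other scaling). IFI6 was at 2251, 1449.5 and 1817 in A549, 41, 47.3 and 46.9 in ES2, 85.3, 75.2 and 87.6 in MV3, and 42.1, 21.8 and 24.7 in PANC1. The summed level of the list ran from 3344 to 4722 in A549 against 954 to 1303 elsewhere. The oligoadenylate synthetases OAS1 and OAS3 sense double-stranded RNA. OAS1 was at 88.4 ± 12.5 in A549 against 1.18 ± 0.411 in ES2, 0.767 ± 0.199 in MV3, 0.864 ± 0.251 in PANC1. OAS3 was at 191 ± 22.8 in A549 against 15.5 ± 0.81 in ES2, 17.4 ± 0.447 in MV3, 29.3 ± 1.72 in PANC1. The antiviral GTPase MX1 showed a wide spread among the A549 libraries, at 102, 56.4 and 68.5 in A549, 0.484, 0.153 and 0.214 in ES2, 0.466, 0.384 and 0.397 in MV3, and 2.47, 1.7 and 1.76 in PANC1. IFIT1 was at 119.98 ± 38.3 in A549 against 5.1 ± 0.198 in ES2, 19.3 ± 2.21 in MV3, 48.1 ± 2.16 in PANC1 with a smallest log2 difference of 1.27 (largest adjusted p = 1.28e-05). IRF9, a subunit of the interferon-activated transcription complex, was at 7.93 ± 3.06. HLA-B was at 1.98, 2.08 and 3.36 in A549, 5.93, 6.7 and 6.04 in ES2, 18.4, 13.5 and 15.2 in MV3, and 11.2, 9.58 and 12 in PANC1. HLA-C was at 18.3 ± 7.23 against 111 ± 13.9 in ES2 and 187 ± 8.04 in MV3, and B2M, their common light chain, at 250.2 ± 30.4 in A549 against 316 ± 20.7 in ES2, 243 ± 1.65 in MV3, 194 ± 20.51 in PANC1. HLA genes are variable and near-identical in sequence, so their counts are uncertain.

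The interferon-stimulated response element, spelled GAAANNGAAA, was searched in the same windows and on both strands. It was found in 3.57% of all 35116 promoters and in 17 of the 24 listed genes with a promoter in the table (70.8%), 6 of 8 above each other line and 11 of 16 others. The letters were thus present in called and uncalled members alike. Stretches of 30 bases are shown for members above each other line and for IFIT3 and IFI44, which were not called, with the matched letters in capitals (the match of MX1, also above, ran past its annotated start and is not shown):
IFI6 (above each other line; chr1:27672329-27672358, - strand): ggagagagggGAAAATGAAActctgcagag
IFIT1 (above each other line; chr10:89392497-89392526, - strand): accgaaagggGAAAGTGAAActaaagctag
OAS3 (above each other line; chr12:112938321-112938350, + strand): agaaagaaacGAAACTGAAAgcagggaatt
IFI27 (above each other line; chr14:94110631-94110660, + strand): cggtttcctgGAAAATGAAAcctatctcat
IFI44L (above each other line; chr1:78620274-78620303, + strand): tcctagtgagGAAAAAGAAAgttagtggca
IFIT3 (not called; chr10:89327865-89327894, - strand): gaggaaactgGAAAGTGAAActaatttaaa
IFI44 (not called; chr1:78649759-78649788, - strand): agagaaagGAAACTGAAActcagtgtgccc
IFIT3 was at 90.3 ± 29.9 in A549 against 40.5 ± 0.274 in ES2, 53.8 ± 3 in MV3, 36.3 ± 5.52 in PANC1, and IFI44 at 80.04 ± 18.4 in A549 against 109.6 ± 15.1 in ES2, 88.6 ± 5.7 in MV3, 0.835 ± 0.83 in PANC1, where the means of ES2 and MV3 were the higher ones.

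Cell cycle and hypoxia genes were set beside all genes tested, of which 9.96% were above and 2.14% below. Proliferation genes were above in 0% and below in 7.69%, and hypoxia genes above in 11.1% and below in 0%. Of 26 proliferation genes none was above and 2 were below: the mitotic activator CDC20 was at 186 ± 14 in A549 against 497 ± 5.54 in ES2, 691 ± 20.9 in MV3, 465 ± 9.34 in PANC1, and the cyclin CCNE2 at 12.6 ± 1.31 in A549 against 37.9 ± 5.33 in ES2, 48.4 ± 2.71 in MV3, 33.2 ± 2.63 in PANC1. MKI67 was at 109.8 ± 10.9 in A549 and 79.6 to 162 in the other libraries. Of 18 hypoxia genes 2 were above, the glycolytic regulator PFKFB3 at 425, 422 and 453 in A549, 40.7, 39.9 and 33.5 in ES2, 40.7, 42.5 and 40.03 in MV3, and 17.8, 15.3 and 20.3 in PANC1 and EGLN3 at 5.96 ± 0.734 (1 of 17 without EGLN3, which was tested only through A549). VEGFA, LDHA and SLC2A1 were not called. Of 9 tested oncofetal genes (12 listed) 1 was above, IGF2BP1, the RNA-binding protein targeted in the siI1 libraries. It was at 196, 201 and 198 in A549, 58.6, 60.4 and 53.9 in ES2, 42.2, 45.5 and 44.5 in MV3, and 61.2, 58.4 and 63.6 in PANC1, with log2 differences of 1.78 ± 0.06 from ES2, 2.16 ± 0.06 from MV3 and 1.69 ± 0.06 from PANC1 (SE; largest adjusted p = 3.94e-11). Its paralogs IGF2BP2 and IGF2BP3 were at 50.3 ± 6.06 and 71.8 ± 1.86, and HMGA1 was lower in A549, at 439 ± 44.3, than in every other library (777 to 3048).

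The 20 genes with the widest separation upward held, beside those already described, transcripts of unlike origin. The genes named here all passed the filter only through A549, as did ALDH1A1, ALDH3A1 and GPX2 above and further list members such as HNF4A. Their calls and folds are therefore descriptions of genes selected by a high level in A549. C8orf4 was at 687 ± 80.8, and HAVCR1, the kidney injury molecule and a virus entry receptor, at 484, 519.6 and 503 in A549, 0 in all 3 ES2 libraries, 0 in all 3 MV3 libraries, and 0, 0.283 and 0 in PANC1. The adhesion molecules of neurons NRCAM and CNTN1 were at 439 ± 27.9 and 511 ± 48.6, and CNTN1 was 1444-fold above ES2. The GABA receptor subunit GABRA5 was at 177 ± 6.59. GABRA5, RSPO3 (a WNT-enhancing ligand, 205 ± 18.3) and CLDN2 (a channel-forming claudin, 191 ± 3.22) had 0 reads in all 9 other libraries. Against a floor of 3 reads over a group they were at least 1069-fold, 951-fold and 947-fold higher. HPGD, which inactivates prostaglandins, was at 518, 557 and 485 in A549, 0 in all 3 ES2 libraries, 0.0558, 0 and 0 in MV3, and 0.412, 0.551 and 0.499 in PANC1. GCNT3 (196 ± 2.23), CPLX2 (169 ± 10.01), RASSF10 (156 ± 8.63) and TNS4 (143 ± 18.2) were also among them.

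The 15 genes furthest below the other lines included several with no read in A549. The arginine methyltransferase PRMT6 (chr1:107056674-107067636) was at 0 in all 3 A549 libraries, 65.1, 54.7 and 63.4 in ES2, 48.7, 49.1 and 45.2 in MV3, and 33.4, 33.3 and 25.6 in PANC1, and against the floor it was at least 66.7-fold lower than in PANC1. Endoglin (ENG), a TGF-beta co-receptor of endothelium, was at 0 in A549 and at 149 ± 6.64 in ES2, 140.5 ± 6.55 in MV3, 20.6 ± 0.659 in PANC1, at least 67.1-fold lower. FAR2, ARMCX1 and ZNF83 were likewise at 0 in the A549 libraries and at least 65.3-fold, 21.9-fold and 79-fold lower than the lowest other line. The metallothionein MT1E had 1 read in A549 and was at 1.15, 0 and 0 in A549, 824, 922 and 881 in ES2, 544, 572 and 527 in MV3, and 227, 259 and 245 in PANC1. Metallothionein genes are close copies, so reads of MT1E cannot be assigned with certainty. MMP2, the gelatinase, was at 0, 0.516 and 0.462 in A549, 43.4, 53.3 and 54.1 in ES2, 93.1, 102 and 92.5 in MV3, and 39.1, 51.5 and 49.8 in PANC1. ITGBL1 (0.261 ± 0.114), TRPV2 (1.19 ± 1.13), TRIB2 (0.171 ± 0.148), SLFN12 (0.333 ± 0.339) and the peroxiredoxin PRDX2 (0.374 ± 0.324) were also low.

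Histone genes formed the remainder. HIST1H2AE, HIST1H2BG and HIST1H2BF lie in the histone cluster of chromosome 6, with annotated starts 113, 112 and 95.6 kb from that of HIST1H4C. HIST1H2AE (chr6:26216921-26217437) was at 2.37, 0 and 0 in A549, 2090.0, 2205 and 2266 in ES2, 1796, 1887 and 1762 in MV3, and 1547, 1539 and 1338 in PANC1. HIST1H2BG was at 3.94, 0 and 1.49 in A549, 536, 535 and 362 in ES2, 748, 778 and 778 in MV3, and 400.5, 459 and 328 in PANC1. HIST1H2BF was at 6.32 ± 6.18 in A549 against 452 ± 32.3 in ES2, 733 ± 23.4 in MV3, 285 ± 41.6 in PANC1. The genes around them were not alike. HIST1H4E, which lies between HIST1H2BF and HIST1H2BG, was at 302 ± 24.5 in A549 against 767 ± 92.1 in ES2, 337 ± 16.3 in MV3, 411 ± 77.3 in PANC1. Before HIST1H2BF, the gene listed as HIST1H3D.1 was at 0 in A549 and also below each other line, at 1.47 in ES2, 13.8 in MV3 and 7.83 in PANC1. After HIST1H2AE, HIST1H3E was at 22.3 ± 3.15 in A549 against 53 ± 5.8 in ES2, 26.7 ± 1.78 in MV3, 10.1 ± 0.759 in PANC1 and HIST1H1D at 1661 ± 39 in A549 against 566 ± 26.2 in ES2, 2964 ± 102 in MV3, 1009.6 ± 178 in PANC1. HIST1H4F was at 0 in A549 and near 0 in PANC1, and HIST1H2BH and HIST1H3G at 0.77 ± 0.899 and 0.667 ± 0.291, while ES2 held all 3 at 1407 ± 103, 587 ± 61.9 and 339 ± 27.2. Histone genes are close copies of each other, so that these counts are uncertain.

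**Figure D5:**
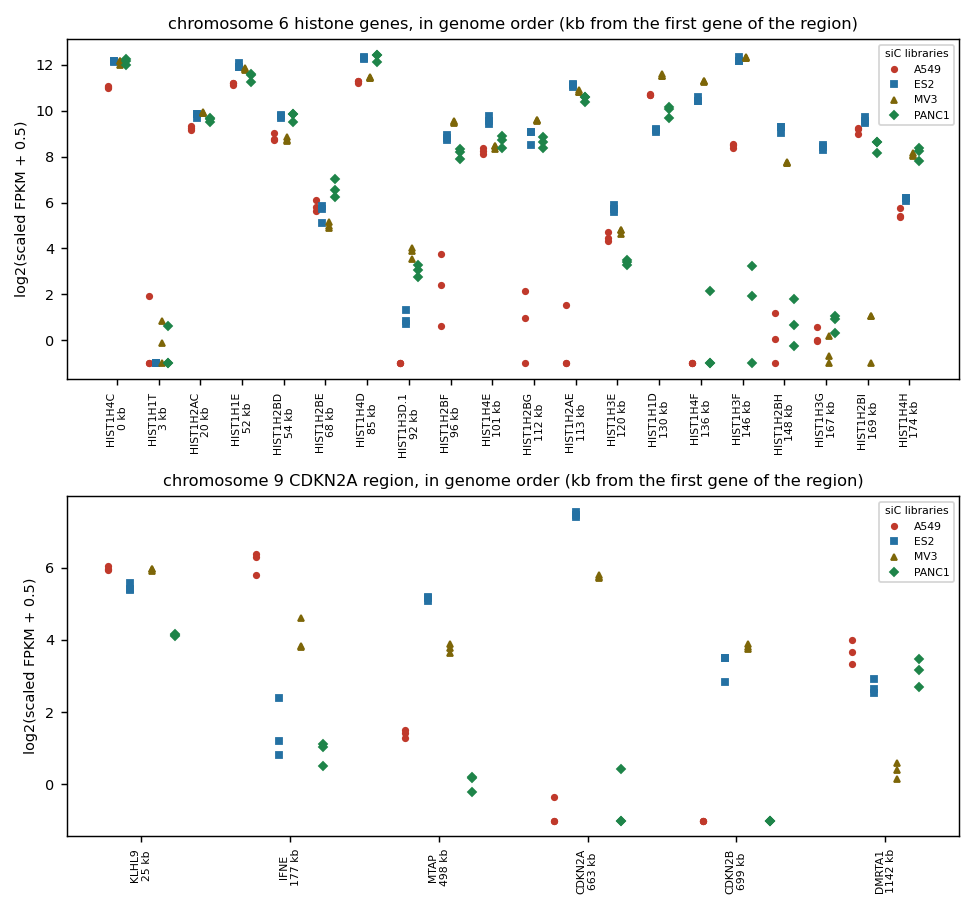
Level of the histone genes of a region on chromosome 6 (top) and of genes around CDKN2A on chromosome 9 (bottom) in each siC library, as log2(scaled FPKM + 0.5), in genome order with the distance from the first gene in kb under each name; 1 symbol is 1 library, and genes under a mean of 1 in every line are left out. In A549, HIST1H2BF, HIST1H2BG and HIST1H2AE lie far below the other lines while HIST1H4E between them does not, HIST1H3D.1 is at the floor, and CDKN2A and CDKN2B lie at or near it.

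The same contrasts in the 12 siI1 libraries, which are separate libraries but received the IGF2BP1 siRNA pool, called 1201 genes above (8.65%) and 369 below (2.66%) each other line. The 975 genes above in both sets were 71.2% of the siC genes and 81.2% of the siI1 genes, and the 210 below in both were 71.4% and 56.9%. Of the listed genes, 113 of the 136 above and 13 of the 21 below were called again. NRF2 targets were above in 20 of 31, xenobiotic genes in 14 of 22, LKB1 loss and CREB genes in 11 of 18, p53 targets in 12 of 26 and endoderm factors in 9 of 18. Interferon and MHC class I genes were above in 7 of 32, IFIT1, OAS2, USP18 and IRF9 no longer being called. Calls above that were not made in the siI1 libraries included KRT7, CCNE1, TKT, COL5A1, TAGLN, BBC3, XPC, NR4A2, ERBB2, NAT1, HOXA7 and HOXB13. TJP3, FOXJ1, FGB and HOXA9 were not tested there. Calls below that were not made were those of EGR1, EMP1, SPRY4, CD59, CCNE2, HOXC5, HOXD3 and HOXD4.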

How the data were processed

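Total RNA of 4 cell lines was sequenced after depletion of ribosomal RNA, and the 12 siC libraries were analysed, grouped by the titles in their labels. Per the methods and the submitters' processing notes, the authors clipped reads with cutadapt 1.14, aligned them to hg38 with HISAT2 2.1.0 and SAMtools 1.5, counted them per gene with featureCounts 1.5.3 on an Ensembl annotation, and tested each line with edgeR 3.30.3. The authors deposited 1 table per line with values per library, taken here as FPKM, scaled by TMM within the table. The unit was not named: values multiplied by the deposited gene length were whole multiples of 1 read for 100% of values (tolerance 0.05). The deposited tables also hold the authors' log2 fold changes of siI1 against siC, their p-values and FDR, none of which were used.

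The tables were joined on gene identifier, and the FPKM of 19799 protein-coding genes were divided by their sum and multiplied by 1000000 in each library. This sets levels across tables that the authors normalised separately, so that tests between lines rest on the rescaling. Genes with a mean of at least 0.5 were tested (13741) on log2(value + 0.5) with limma 3.58.1 in R 4.3.3 (lmFit, eBayes with trend, two-sided, 4 groups, no covariates) and Benjamini-Hochberg adjustment at 0.05. Floors are 3 reads over the 3 libraries of a group. Floors cover counting error only. Replicates differed by more than sampling noise (chi-square per gene 1.65 to 7.36 over the 12 pairs), so all counted as separate. Python 3.11.15 with numpy 2.4.6, pandas 2.3.3 and matplotlib 3.10.9 was used otherwise.

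Genes named are members of the lists, the 20 genes with the largest smallest-of-3 log2 difference among those above each other line (A549 mean at least 5), and the 15 lowest among those below (mean at least 5 in every other line), without chromosome Y. KLHL9, DMRTA1, IFNE, the IFNA genes, TMSB10 and the histone genes outside this rule were chosen after their values were seen. Some genes that these rules select are counted in the lists but are not reported here. The lists and comparisons were chosen with earlier results of these data known. Coordinates are from GENCODE 44, newer than the authors' annotation but of the same build. Alternatives were other scalings, pseudocounts, filters, fold minimums, voom on recovered reads, thinning to equal depth, a replicate block, and leaving out a library or PANC1. With no measured group of 4 or more libraries, no test for single outlying libraries was made.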

Additional observations from a re-analysis of the deposited data

How the results depend on the processing

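Of 127 values of the 5 main comparisons under all settings, 114 were within 1.5 times the reported count. The 35 genes named by size kept their call in all 910 fits that tested them. They were picked from these data as the most extreme, so this outcome was largely set by their selection. The count of genes above each other line was 1171 on a common median, 1157 with median-of-ratios scaling, 1280 with limma voom on recovered reads and 1354 when libraries were thinned to 3680870 protein-coding reads; the counts below were 384, 388, 393 and 288. The counts outside 1.5 times the reported ones were the following. A filter at a mean of 5 left 814 above. Without a fold minimum 3082 were above and 1381 below, and 10375, 10067 and 10173 differed from ES2, MV3 and PANC1. With a log2 difference of at least 2 there were 661 above and 115 below, and 2437, 2337 and 2118 differing. Without PANC1, which was harvested later, 2331 were above and 733 below. Only the contrasts with ES2 and MV3 had to agree there. Neither ES2 nor MV3 was left out in turn, so the part of PANC1 itself was not tested. Leaving out 1 library at a time gave 1311 to 1400 above and 287 to 306 below. Replicate numbers do not pair cultures of different lines (correlation of deviations between same-numbered libraries -0.07 to 0.11), and with the replicate block 1370 were above and 294 below, and 5043, 4808 and 4765 differed from ES2, MV3 and PANC1. Of 858 counts of list members above each other line, 787 moved by less than 1.5 times. This number includes lists with 0 members above, such as melanocyte and SWI/SNF subunit genes. Their counts stayed at 0 under the other scalings and when 1 library was left out. The shallow depth of A549 limits statements on genes listed at 0 there to those above 3 reads over its 3 libraries.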

Other observations

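Called genes that follow each other on a chromosome were counted after the data were seen, as runs of at least 4 neighbouring tested genes above, or 3 below, each other line, and 29 runs were found. On chromosome 10, AKR1E2, AKR1C1, AKR1C2, AKR1C3 and AKR1C4 (chr10:4786629-5218949) were all above each other line, and on chromosome 7 AKR1B1, AKR1B10 and AKR1B15 were, with SLC35B4 beside them (chr7:134289332-134579875). The paraoxonases PON1, PON2 and PON3, which hydrolyse lipid peroxides and lactones, were above together with PPP1R9A, ASB4 and PDK4 (chr7:94907202-95596516). The hair keratins KRT81, KRT83, KRT85 and KRT86 lay in 1 run with KRT7 (chr12:52232520-52367481). The organic anion transporters of liver SLCO1B1, SLCO1B3 and SLCO1B7 stood beside PDE3A (chr12:20368537-21239796). A run of 4 genes below each other line held FOSL1 with CCDC85B, C11orf68 and DRAP1 (chr11:65890673-65921563), and MMP2 was followed by LPCAT2 and CAPNS2 (chr16:55389700-55586666). Protocadherin alpha genes (12 in 1 run on chromosome 5) and UGT1A genes share exons, and TBC1D3, AKR1C and keratin genes are close copies, so these runs partly count the same reads. The background is 9.96% of tested genes above and 2.14% below.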
